A study of Mus musculus with 2 samples.

Results

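The enzymes that carry glucose and glycogen to lactate were examined as 31 genes. They were chosen by name as the enzymes of glycolysis, lactate production, glycogen breakdown, glycogen synthesis and a few regulators and side branches. Reads of all transcript models listed under each gene name were summed, and all 31 genes had reads in both libraries, of 15631 annotated genes with reads in either. The study sequenced total RNA of gastrocnemius, a fast-twitch calf muscle, as long reads. The animals were male mice of the strain B6CASTF1/J, an F1 hybrid, aged 10 days, and each of the 2 libraries came from its own animal and from 2 µg of RNA. Both libraries form 1 group with no treatment, mutation or control. The design therefore shows how the genes are used in this muscle and how far 2 libraries from separate animals differ.

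In glycolysis a chain of cytosolic enzymes splits a sugar phosphate into pyruvate, and lactate dehydrogenase turns pyruvate into lactate so that the chain can go on without oxygen. Muscle holds its own store of glucose as glycogen, which glycogen phosphorylase opens when calcium and hormones switch on phosphorylase kinase. Most steps are encoded by several paralogous genes, and adult fast muscle is known for relying on muscle forms such as Pfkm, Pgam2, Eno3 and Pygm.

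The libraries held 1145490 and 941841 mouse reads after spike-ins were set aside, and the 31 genes took 4.36% and 4.46% of them. The level of a gene is its reads per 1000000 mouse reads (CPM), stated for replicate 1 and then for replicate 2. Each long read was counted once whatever its length, so levels were not divided by length. The mean length of the models behind the reads ran from 827 nt for Pgam2 to 5582 nt for Phka1 in replicate 1. Whether RNAs of different length were read equally often was not tested. A count of 3 reads corresponded to 2.62 CPM and 3.19 CPM. The muscle label fitted its markers: 6 of 6 muscle fibre genes were found, with a summed level of 243369 CPM and 255471 CPM. The 5 fibroblast markers summed to 18733 CPM and 11052 CPM, the 4 Schwann cell markers to 1691 CPM and 1290.03 CPM, and the 5 red cell markers to 409 CPM and 853 CPM. Endothelial, immune and adipocyte markers each summed to at most 139 CPM in either library, and Ptprc was at 0 in a library. In whole tissue, fewer cells of a type and less RNA per cell cannot be told apart. Intervals and limits here cover the error of counting reads and nothing else.

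The 31 genes differed widely in level, from Aldoc at 2.03 CPM to Eno3 at 9702 CPM on average. The mean level was 1000 CPM or more for 10 genes, 100 to 1000 CPM for 8, 10 to 100 CPM for 11 and under 10 CPM for 2. Of the 100 genes with the highest mean level, 11 were among these enzymes. The summed level was 43569 CPM and 44641 CPM, a mean of 44105 ± 758 CPM (SD, n = 2). Glycolytic enzymes made up 76.0% and 74.7% of that sum, lactate dehydrogenases 16.4% and 19.1%, glycogen breakdown 4.34% and 3.26%, glycogen synthesis 1.69% and 1.79%, and the regulators and side branches 1.58% and 1.20%. Eno3, Aldoa, Ldha and Pkm together gave 67.8% and 70.5%.

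**Figure D1:**
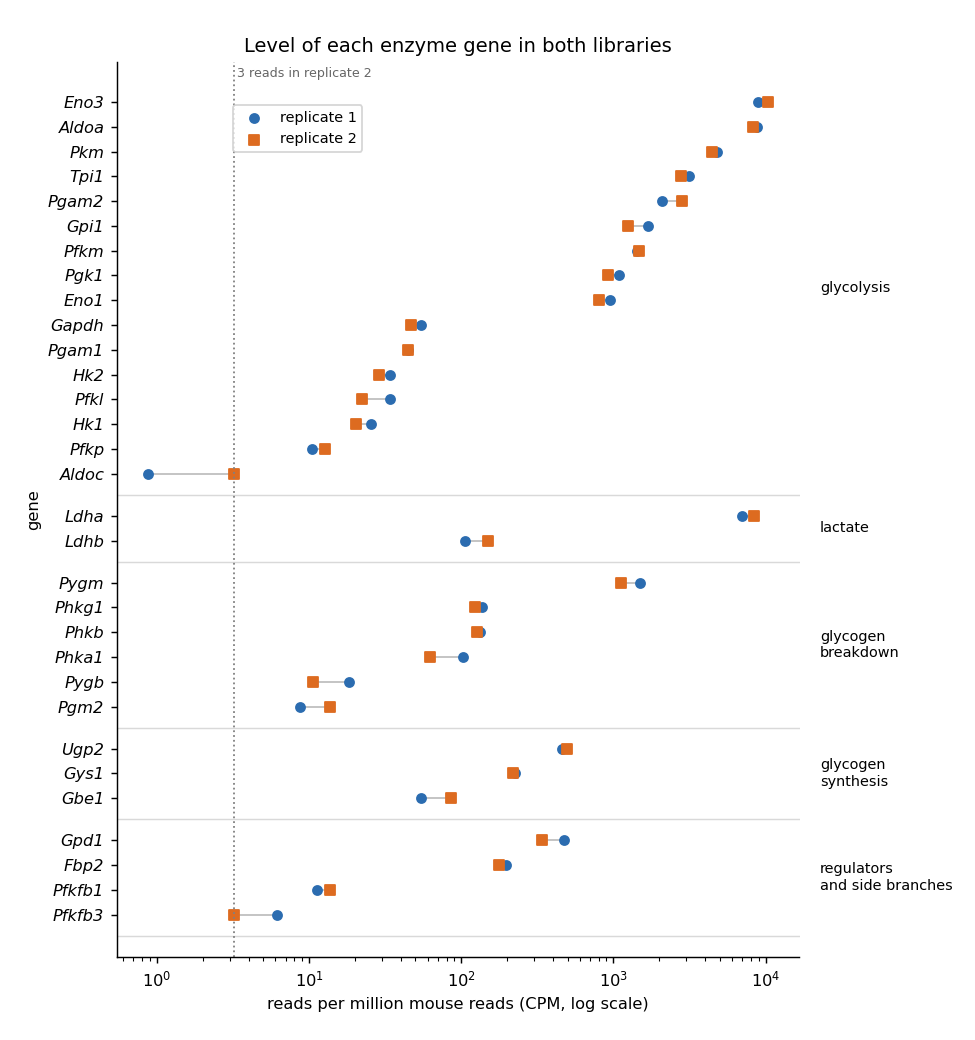
Level of each of the 31 genes in CPM on a log axis, grouped by role, with a circle for replicate 1, a square for replicate 2 and a dotted line at 3 reads in replicate 2. Eno3, Aldoa and Ldha are highest in both libraries, while Aldoc and Pfkfb3 reach the dotted line in replicate 2.

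The hexokinases, which phosphorylate glucose as it enters the cell, were the step of lowest level in the chain apart from Gapdh, whose count is uncertain as described further on. Hk2, the insulin-regulated form, had 39 and 27 reads, or 34.0 CPM and 28.7 CPM. Hk1, the widely expressed form, had 29 and 19 reads, or 25.3 CPM and 20.2 CPM. Hk2 took 55.7% and 58.7% of hexokinase reads, with Clopper-Pearson 95% intervals of 43.3% to 67.6% and 43.2% to 73.0%, so neither interval lies clear of an even split with Hk1. Only 53.8% and 25.9% of Hk2 reads, 21 and 7 reads, fell on an annotated transcript. On annotated transcripts alone its mean share of the family was 41.3%, with no interval computed. Hkdc1 had 0 reads, which allows a share of up to 4.29% and 6.52%. Hexokinase as a family summed to 55.0 ± 8.68 CPM (SD, n = 2).

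Gpi1, the isomerase that makes fructose 6-phosphate, stood at 1687 CPM and 1248 CPM. It was higher in replicate 1, at a fold of 0.740 for replicate 2 over replicate 1 with an interval of 0.687 to 0.796 (exact conditional binomial test, Benjamini-Hochberg adjusted p = 3.08e-14). Its annotated transcript Gpi1-201 held 92.5% and 91.3% of its reads.

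Phosphofructokinase commits the sugar to glycolysis, and its muscle gene Pfkm stood at 1437 CPM and 1471 CPM. The libraries lay close together, at a fold of 1.02 with an interval of 0.952 to 1.10. The liver form Pfkl had 34.0 CPM and 22.3 CPM and the platelet form Pfkp 10.5 CPM and 12.7 CPM. Pfkm took 97.0% and 97.7% of the family's reads. Its paralogues together therefore gave a few percent of phosphofructokinase reads in each library.

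Most spliced Pfkm reads began in either of 2 exons on chromosome 15. Pfkm-201, the annotated transcript of 23 exons with its first exon at chr15:98108466-98108611, held 41.2% and 36.7% of Pfkm reads. A model of 22 exons with its first exon at chr15:98112034-98112246, which ends at the donor of an annotated internal exon, held 45.2% and 50.2%. The deposited files class it as an incomplete match to an annotated transcript. The first-exon test left such models out. There the first exon of Pfkm-201 took 694 of 761 reads and 512 of 564, or 91.2% and 90.8%. Counted over all spliced reads by the splice donor of the first exon, the downstream start took 775 of 1634 reads and 712 of 1384 reads, or 47.4% and 51.4%, with Wilson intervals of 45.0% to 49.9% and 48.8% to 54.1%. The upstream start took 42.5% and 37.1%, with intervals of 40.2% to 44.9% and 34.6% to 39.6%, which do not overlap between the libraries, although the difference did not pass (Fisher's exact test over all spliced classes, adjusted p = 0.153). RefSeq lists a transcript start at 98112060, which lies 26 nt downstream of this model's first base, and another start 5 nt downstream of the first base of Pfkm-201. In Pfkm-201 the exon with the same donor begins at 98112154, so this model extends 120 nt past that acceptor. Whether these reads begin at a true start of transcription was not tested.

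The 250 bases before the downstream RefSeq start are shown because of the first-exon counts. In both libraries, with incomplete models included, more spliced Pfkm reads had a first exon ending at the downstream donor than at that of Pfkm-201. These counts are by donor and do not place the first base of each read. The bases were taken from the RefSeq table on GRCm38.p6, which is the mm10 assembly of the files, at chr15:98111810-98112059 on the plus strand. Capitals mark an E-box, CANNTG, the core letters bound by many basic helix-loop-helix factors.

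Pfkm, before the downstream start: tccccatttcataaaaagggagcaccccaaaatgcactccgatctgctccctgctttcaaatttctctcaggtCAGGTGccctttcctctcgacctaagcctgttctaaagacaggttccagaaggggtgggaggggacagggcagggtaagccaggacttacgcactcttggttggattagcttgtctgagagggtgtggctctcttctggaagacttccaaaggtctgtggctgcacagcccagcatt

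Aldolase splits fructose 1,6-bisphosphate. Aldoa, the muscle and general form, stood at 8723 CPM and 8213 CPM and held rank 11 of all annotated genes by mean level. The fold was 0.942 with an interval of 0.914 to 0.970, a difference of under 10% that passed the adjusted test with no fold limit (exact conditional binomial test, adjusted p = 0.00175). Aldoc, the brain form, had 1 and 3 reads.

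Aldoa is transcribed from several promoters, and its reads used mainly a pair of first exons. The upstream one, chr7:126800002-126800046 on the minus strand, is 45 nt long and is the annotated first exon of Aldoa-204 and Aldoa-210. Of spliced reads outside the incomplete class, it began 5904 of 9515 in replicate 1 and 3859 of 7364 in replicate 2, or 62.0% and 52.4%. The downstream one, chr7:126799045-126799254, is 210 nt long and begins Aldoa-201. It took 35.7% and 45.3%. The intervals of the libraries did not overlap for either exon. The shift of 9.62 points to the downstream exon in replicate 2 passed the adjusted test without reaching the limit of 10 points set for a call (Fisher's exact test, Benjamini-Hochberg adjusted p = 2.36e-33). The most used model joins the upstream exon to annotated splice sites in a chain that no annotated transcript has, and it held 58.3% and 49.3% of all Aldoa reads against 33.3% and 42.5% for Aldoa-201.

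The nearest RefSeq start lies 401 nt before the start of the upstream model, whereas the RefSeq start of the downstream exon matches the model's first base. The 250 bases before the latter are shown because the share of this first exon differed between the 2 libraries. They lie at chr7:126799255-126799504 on the minus strand (RefSeq, GRCm38.p6), and capitals mark an E-box.

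Aldoa, before the downstream start: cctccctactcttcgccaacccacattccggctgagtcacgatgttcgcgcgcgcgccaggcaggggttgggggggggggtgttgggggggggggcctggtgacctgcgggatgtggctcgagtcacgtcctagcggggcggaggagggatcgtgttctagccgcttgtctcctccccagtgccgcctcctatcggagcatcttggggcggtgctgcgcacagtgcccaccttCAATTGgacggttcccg

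Tpi1, which interconverts the 3-carbon products of aldolase, stood at 3152 CPM and 2785 CPM. Its fold was 0.883 with an interval of 0.840 to 0.929 (exact conditional binomial test, adjusted p = 5.13e-05). Its upstream first exon began 93.0% and 93.2% of spliced reads outside the incomplete class, and a downstream one 6.61% and 6.44%, with overlapping intervals. Tpi1-205 held 91.1% and 90.6% of its reads.

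Gapdh, which makes the first high-energy phosphate of the chain and is a common reference gene, was listed with only 62 and 44 reads, or 54.1 CPM and 46.7 CPM. That is far under its neighbours in the chain, Tpi1 and Pgk1. Its reads were scattered over 18 and 15 models, with 12 and 9 reads in the largest, and only 16.1% and 27.3% fell on annotated transcripts. Gapdh has many near-identical copies in the mouse genome. In the annotation, 112 genes share 10% or more of the 31-base words of Gapdh-203, and 106 of them are pseudogenes.

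Reads on those copies far outnumbered reads on Gapdh itself. Together they held 6011 and 3325 reads, or 5248 CPM and 3530.3 CPM. The processed pseudogene Gm12671 alone had 2351 and 1098 reads, and Gm12033 had 1470 and 792. Gm5559 had 1093 and 633 reads and Gm7336, which shares 84.1% of the words, had 696 and 545. All reads of these 4 were in single-exon models. Gapdh and the copies together summed to 4439 ± 1219 CPM (SD, n = 2), of which the reads listed under Gapdh were 1.02% and 1.31%. The summed level of the 31 genes would be 48494 CPM with the copies counted, a choice made after the data were seen. Every value for Gapdh here is therefore uncertain: the files do not show which reads could have been placed on either gene.

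**Figure D2:**
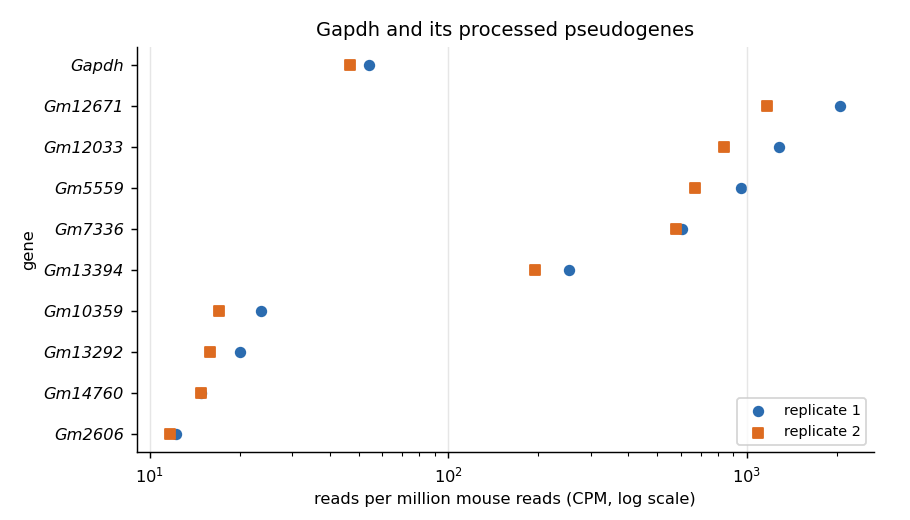
Level in CPM on a log axis of Gapdh and of the 9 processed pseudogenes that share at least 10% of its 31-base words and had 10 or more reads over both libraries, with a circle for replicate 1 and a square for replicate 2. Gapdh stands at 54.1 CPM and 46.7 CPM, below 5 of the 9, and Gm12671 at 2052 CPM and 1166 CPM.

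Copies mattered little for the other genes. Eno1 had 57 and 61 reads on its copies, chiefly on the single-exon gene Eno1b. No other enzyme had more than 3 reads on a copy in a library.

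Pgk1, the X-linked kinase that makes the first ATP of the chain, stood at 1085 CPM and 927 CPM. Its fold was 0.854 with an interval of 0.782 to 0.932 (exact conditional binomial test, adjusted p = 0.00707). Pgk1-201 held 81.5% and 82.6% of its reads. Pgk2, the testis form, had 0 reads, which allows up to 0.241% and 0.344% of the pair's reads.

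Phosphoglycerate mutase moves the phosphate group before the enolase step, and its muscle gene Pgam2 stood at 2092 CPM and 2806 CPM. It was higher in replicate 2, at a fold of 1.34 with an interval of 1.27 to 1.42 (exact conditional binomial test, adjusted p = 4.36e-23). Pgam1, the general form, was level at 44.5 CPM and 44.6 CPM. Pgam2 took 97.9% and 98.4% of the family's reads. Its transcript Pgam2-201 has 3 exons and held 95.4% and 96.3% of its reads.

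The 250 bases before the RefSeq start of Pgam2 are shown because its reads used 1 first exon almost throughout, 2287 of 2288 and 2549 of 2549 spliced reads outside the incomplete class. They lie at chr11:5803797-5804046 on the minus strand (RefSeq, GRCm38.p6). Capitals mark 5 E-boxes and 1 match to the MEF2 motif, the consensus of a family of muscle transcription factors.

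Pgam2, before the start: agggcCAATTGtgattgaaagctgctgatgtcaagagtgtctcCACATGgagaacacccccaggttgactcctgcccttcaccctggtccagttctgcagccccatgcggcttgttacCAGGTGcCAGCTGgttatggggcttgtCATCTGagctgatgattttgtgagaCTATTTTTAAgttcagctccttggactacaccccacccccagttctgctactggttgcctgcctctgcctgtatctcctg

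Enolase, which forms phosphoenolpyruvate, was the most abundant step. Eno3, the muscle form, stood at 8949.9 CPM and 10454 CPM, rank 10 of all annotated genes. It was higher in replicate 2, at a fold of 1.17 with an interval of 1.14 to 1.20 (exact conditional binomial test, adjusted p = 1.09e-25). Eno1, the general form, was lower in replicate 2, at 956 CPM and 801 CPM and a fold of 0.837 with an interval of 0.762 to 0.920 (exact conditional binomial test, adjusted p = 0.00400). Eno3 took 89.9% and 92.4% of enolase reads and Eno1 9.61% and 7.08%. The Clopper-Pearson intervals of the libraries did not overlap for either gene. Enolase was the family with a second gene of high level, since Eno1 had 1095 and 754 reads. Eno2, the neuronal form, had 3 and 0 reads.

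Eno3 was read mainly from its annotated upstream first exon, chr11:70657202-70657267. That exon took 82.4% and 82.2% of all spliced reads, and 85.0% and 86.2% of those outside the incomplete class. A first exon downstream, chr11:70657796-70657958, took 10.4% and 8.64% of the latter. This small difference passed the adjusted test without the limit on size (Fisher's exact test, adjusted p = 0.00662). The models Eno3-201 and Eno3-202 share the upstream exon, and they held 51.5% and 50.9%, and 28.4% and 28.4%, of all Eno3 reads.

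Eno1 carried a pair of mutually exclusive exons. Both are 59 nt long and coding, so exchanging them leaves the reading frame. The first, chr4:150241767-150241825, was held by 994 of 1074 spanning reads and 668 of 741, or 92.6% and 90.1%. The second, chr4:150242122-150242180, was held by 8.30% and 10.3%. Their intervals overlapped between libraries. The main Eno1 model, with 88.2% and 86.3% of the reads, uses annotated splice sites in a chain that is not annotated. The exons are printed from the M21 transcripts Eno1-205 and Eno1-202, and capitals mark the bases that differ between them, 29 of 59.

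Eno1, first exon of the pair: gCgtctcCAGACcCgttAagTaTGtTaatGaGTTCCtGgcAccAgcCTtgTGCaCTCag

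Eno1, second exon of the pair: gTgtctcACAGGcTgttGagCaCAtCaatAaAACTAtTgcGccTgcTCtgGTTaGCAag

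Pyruvate kinase makes the last ATP of the chain. Pkm stood at 4808 CPM and 4448 CPM, with a fold of 0.925 and an interval of 0.888 to 0.963 (exact conditional binomial test, adjusted p = 0.00334). Pklr, the liver and red cell gene, had 0 reads, which allows up to 0.0545% and 0.0716% of the pair's reads. The step was thus read from 1 gene within the limits of counting.

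Pkm gives the M1 enzyme or the M2 enzyme by its choice between a pair of exons of equal length, M1 being known from adult muscle and M2 from growing and embryonic cells. The M1 exon, chr9:59675029-59675195, was held by 5242 of 5440 spanning reads and 3973 of 4137, or 96.4% and 96.0%. The M2 exon, chr9:59675568-59675734, was held by 203 of 5467 and 165 of 4168, or 3.71% and 3.96%. The Wilson intervals for M2 were 3.24% to 4.25% and 3.41% to 4.59%, which overlap between the libraries. Inclusion of M2 was below the 5% set for testing. The exons are shown in full, from the M21 transcripts Pkm-202 and Pkm-201, because the choice between them sets which enzyme is made. They share 103 of 167 bases (61.7%) at the same position, and capitals mark the bases that differ.

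Pkm, M1 exon: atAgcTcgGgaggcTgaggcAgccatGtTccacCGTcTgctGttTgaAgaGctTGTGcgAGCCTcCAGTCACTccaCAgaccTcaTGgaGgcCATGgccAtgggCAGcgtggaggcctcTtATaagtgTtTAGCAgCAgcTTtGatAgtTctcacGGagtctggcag

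Pkm, M2 exon: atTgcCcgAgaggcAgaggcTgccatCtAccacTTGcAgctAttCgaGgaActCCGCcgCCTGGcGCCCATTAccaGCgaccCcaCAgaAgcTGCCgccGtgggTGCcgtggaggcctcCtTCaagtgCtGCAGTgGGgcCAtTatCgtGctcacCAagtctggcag

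Lactate dehydrogenase closes the anaerobic route. Ldha, the form of fast muscle, stood at 7052 CPM and 8369 CPM and was higher in replicate 2, at a fold of 1.19 with an interval of 1.15 to 1.22 (exact conditional binomial test, adjusted p = 9.30e-25). Ldhb, the heart form, had 106 CPM and 151 CPM, a fold of 1.43 with an interval of 1.11 to 1.83 (exact conditional binomial test, adjusted p = 0.0479). Ldha took 98.5% and 98.2% of the family's reads, so both genes were higher in replicate 2 while their proportion stayed within overlapping intervals. Ldha-202 held 96.4% and 97.2% of Ldha reads, and Ldhb-201 held 95.0% and 95.1% of Ldhb reads. Ldhc, the testis form, had 0 reads, which allows up to 0.0366% and 0.0374%.

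**Figure D3:**
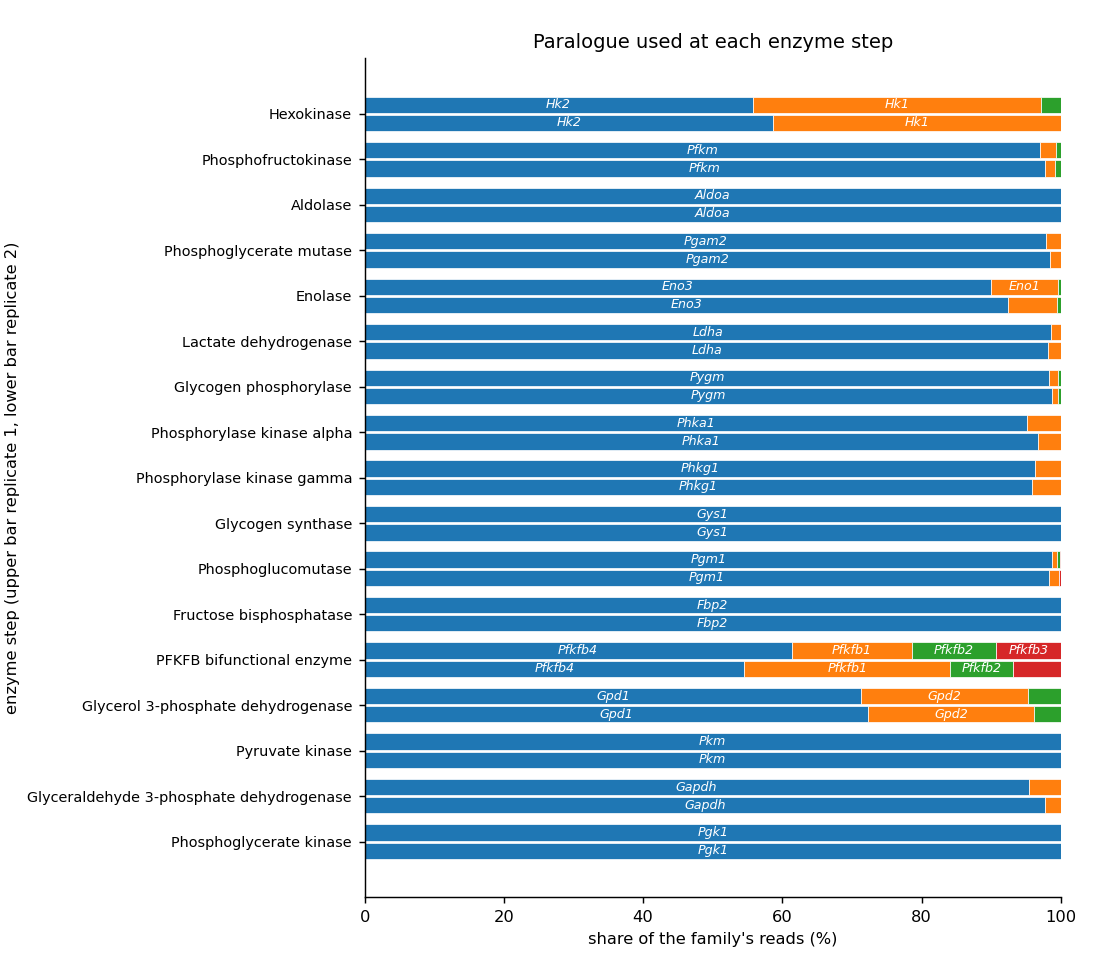
Share of each family's reads by gene, in percent, for 17 enzyme steps with replicate 1 above and replicate 2 below; within a step the colours run from the gene with the highest mean share to the lowest, and names are printed on shares over 8%. In 13 of the 17 steps the leading gene has a mean share of 95% or more, while hexokinase and the PFKFB enzymes are divided.

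Glycogen phosphorylase frees glucose 1-phosphate from glycogen. Pygm, the muscle form, stood at 1491 CPM and 1119 CPM and was higher in replicate 1, at a fold of 0.751 with an interval of 0.694 to 0.811 (exact conditional binomial test, adjusted p = 1.70e-11). Pygb, the brain form, had 18.3 CPM and 10.6 CPM. Pygm took 98.3% and 98.7% of the family's reads. Incomplete models made up 31.4% and 36.5% of Pygm reads, the second highest mean share of the 31 genes after Pfkm. Those reads began at many places: no start other than the annotated first exon took more than 6.95% in a library, in contrast to Pfkm.

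Phosphorylase kinase, which switches phosphorylase on, has alpha, beta and gamma subunits among its parts. Phka1, the muscle alpha subunit, had 103 CPM and 62.6 CPM. It was higher in replicate 1, at a fold of 0.608 with an interval of 0.437 to 0.838 (exact conditional binomial test, adjusted p = 0.0258). Phkb, the beta subunit, had 133 CPM and 127 CPM. Phkg1, the muscle catalytic subunit, had 137 CPM and 123 CPM. Neither of the latter differed past the threshold. The muscle forms took 95.2% and 96.7% of alpha reads and 96.3% and 95.9% of gamma reads, with Phka2 and Phkg2 at 6 reads or fewer in each library. Phka1, Phkb and Phkg1 together summed to 343 ± 42.1 CPM (SD, n = 2).

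Each of the 3 subunits had a variable exon. In Phka1 an exon of 177 nt, chrX:102557096-102557272, was held by 79 of 115 spanning reads and 35 of 52, or 68.7% and 67.3%. It makes the difference between Phka1-202 (46.6% and 42.4% of Phka1 reads) and Phka1-201 (23.7% and 23.7%). The exon is shown because it divides the subunit's transcripts in both animals. It spans 59 codons in length, so skipping it keeps the frame. The sequence is from the M21 transcript Phka1-202, on the minus strand.

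Phka1, exon of 177 nt: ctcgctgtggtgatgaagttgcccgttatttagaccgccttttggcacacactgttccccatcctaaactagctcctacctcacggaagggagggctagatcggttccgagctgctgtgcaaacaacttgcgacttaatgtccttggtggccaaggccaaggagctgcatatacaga

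In Phkb the exon used was not the annotated one. Annotated transcripts have an exon of 91 nt at chr8:86026457-86026547, which only 8.63% and 5.41% of spanning reads held. An exon of the same length at chr8:86025198-86025288, absent from M21, was held by 126 of 139 spanning reads and 104 of 111, or 90.6% and 93.7%. The main Phkb model contains it with 2 introns that M21 lacks, and it held 67.8% and 70.8% of Phkb reads, while annotated transcripts held 2.63% and 2.50%. In Phkg1 an exon of 66 nt at chr5:129869461-129869526 was held by 86.2% and 89.3%. None of these exons differed between the libraries past the threshold (Fisher's exact test, adjusted p = 1.00 for the Phka1, Phkb and Phkg1 exons).

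**Figure D4:**
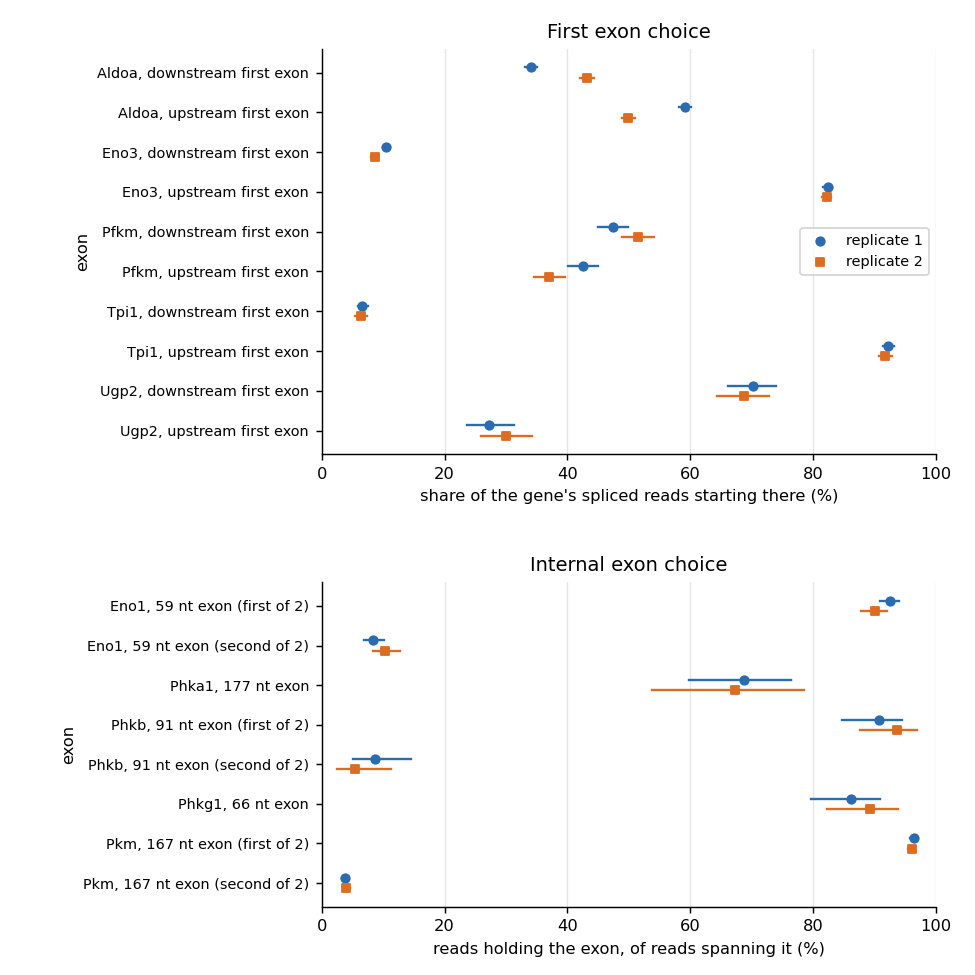
Upper panel: share of a gene's spliced reads, incomplete models included, that begin at each first exon, in percent. Lower panel: share of spanning reads that hold each internal exon, in percent; points are libraries (circle replicate 1, square replicate 2) and bars are Wilson 95% intervals. Intervals do not overlap between the libraries for both Aldoa exons, the upstream Pfkm exon and the downstream Eno3 exon. Pfkm is divided mainly between a pair of first exons.

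Pgm2, a phosphoglucomutase, had 8.73 CPM and 13.8 CPM, and it gave only 0.713% and 1.36% of phosphoglucomutase reads. The gene that the annotation names Pgm1 held 98.8% and 98.3%, at 1210 CPM and 1000.2 CPM. The step between glucose 1-phosphate and glucose 6-phosphate was therefore read almost wholly from a gene outside the 31.

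For glycogen synthesis, Ugp2, which makes UDP-glucose, stood at 457 CPM and 496 CPM. Gys1, the muscle glycogen synthase, had 226 CPM and 219 CPM. Gbe1, the branching enzyme, had 54.1 CPM and 86.0 CPM, with a fold of 1.59, an interval of 1.13 to 2.25 and an adjusted p of 0.0671 (exact conditional binomial test). The 3 genes did not differ past the threshold. Gys2, the liver synthase, had 0 reads, which allows up to 1.16% and 1.46% of synthase reads. Gys1-201 held 66.4% and 77.2% of Gys1 reads, and incomplete models held 26.6% and 19.4%.

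Ugp2 used a pair of annotated first exons in both animals. Spliced reads outside the incomplete class were counted. The downstream one, chr11:21370187-21370477 on the minus strand, took 360 of 502 reads and 320 of 460, or 71.7% and 69.6%. The upstream one, chr11:21371015-21371201, took 28.3% and 30.4%. The Wilson intervals overlapped between the libraries, and the difference of 2.15 points did not pass (Fisher's exact test, adjusted p = 1.00). Annotated Gbe1 transcripts had 0 reads, which allows up to 4.84% and 3.70% of Gbe1 reads. A model of 16 exons that joins annotated splice sites in an unannotated chain held 91.9% and 91.4% of Gbe1 reads.

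Among the regulators and side branches, Gpd1, which passes reducing power from glycolysis to glycerol 3-phosphate, was highest at 475 CPM and 341 CPM. It was higher in replicate 1, at a fold of 0.718 with an interval of 0.623 to 0.825 (exact conditional binomial test, adjusted p = 7.23e-05). It took 71.3% and 72.3% of the reads of its family, beside the mitochondrial Gpd2 with 24.0% and 23.9%. Gpd1-201 held 77.4% and 76.9% of Gpd1 reads, and unspliced incomplete models, counted together, held 11.9% and 13.4%. Fbp2, the muscle fructose bisphosphatase that runs against phosphofructokinase, had 198 CPM and 177 CPM, and Fbp1, the liver form, had 0 reads, which allows up to 1.32% and 1.80% of the pair's reads.

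The bifunctional PFKFB enzymes set the level of fructose 2,6-bisphosphate, an activator of phosphofructokinase, and all were low. Pfkfb1 had 11.3 CPM and 13.8 CPM, and Pfkfb3 had 6.11 CPM and 3.19 CPM. The most read gene of the family was Pfkfb4 with 61.3% and 54.5% of its reads, ahead of Pfkfb1 with 17.3% and 29.5%. The Clopper-Pearson intervals of these shares were 49.4% to 72.4% and 38.8% to 69.6% for Pfkfb4, and 9.57% to 27.8% and 16.8% to 45.2% for Pfkfb1. On annotated transcripts alone Pfkfb1 had a mean of 71.3 ± 12.4% of the family (SD, n = 2). That share rests on 10 and 7 reads of Pfkfb1-201 and 1 read of Pfkfb1-202 in replicate 2. The gene with the highest mean share thus changed with the models counted. No interval was computed for annotated transcripts alone, and the counts are too low to settle the order there.

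The libraries were compared gene by gene over all annotated genes with 20 or more reads, which compares these 2 libraries and not conditions. Calls needed both an adjusted p below 0.05 and a difference of at least 2-fold. Of 7516 genes 2.71% were called, 1.89% as higher in replicate 1 and 0.825% as higher in replicate 2, and of the 29 enzymes tested 0 were, by the exact conditional binomial test with mouse reads, edgeR TMM factors or DESeq2 size factors as the scale. Aldoc and Pfkfb3 had too few reads to test. At an unadjusted p under 0.05, 14 of the 29 passed, against 20.3% of all genes tested. A gene that was not called is not shown to be equal in the 2 animals.

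With no limit on the fold, 13 of the 29 passed the adjusted test, against 9.11% of all genes tested. Enzymes with many reads passed at small folds, and those with few reads had wide intervals. The 4 that were higher in replicate 2 were Pgam2, Eno3, Ldha and Ldhb, against 4.64% of all genes in that direction. The 9 that were higher in replicate 1 were Gpi1, Aldoa, Tpi1, Pgk1, Eno1, Pkm, Pygm, Phka1 and Gpd1, against 4.47%. The log2 differences ran from -0.75 for Pygb to 0.67 for Gbe1, with a median of -0.11 beside -0.01 over all genes tested. The mean length of the models behind the reads, in replicate 1, also differed between these groups. It was 827 nt (Pgam2) to 1602 nt (Ldha) for the 4 higher in replicate 2. For the 9 higher in replicate 1 it was 1540 nt (Tpi1) to 5582 nt (Phka1). Fibroblast markers, given above, were also higher in replicate 1 and red cell markers in replicate 2. The part of length or of these markers in the differences was not tested.

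**Figure D5:**
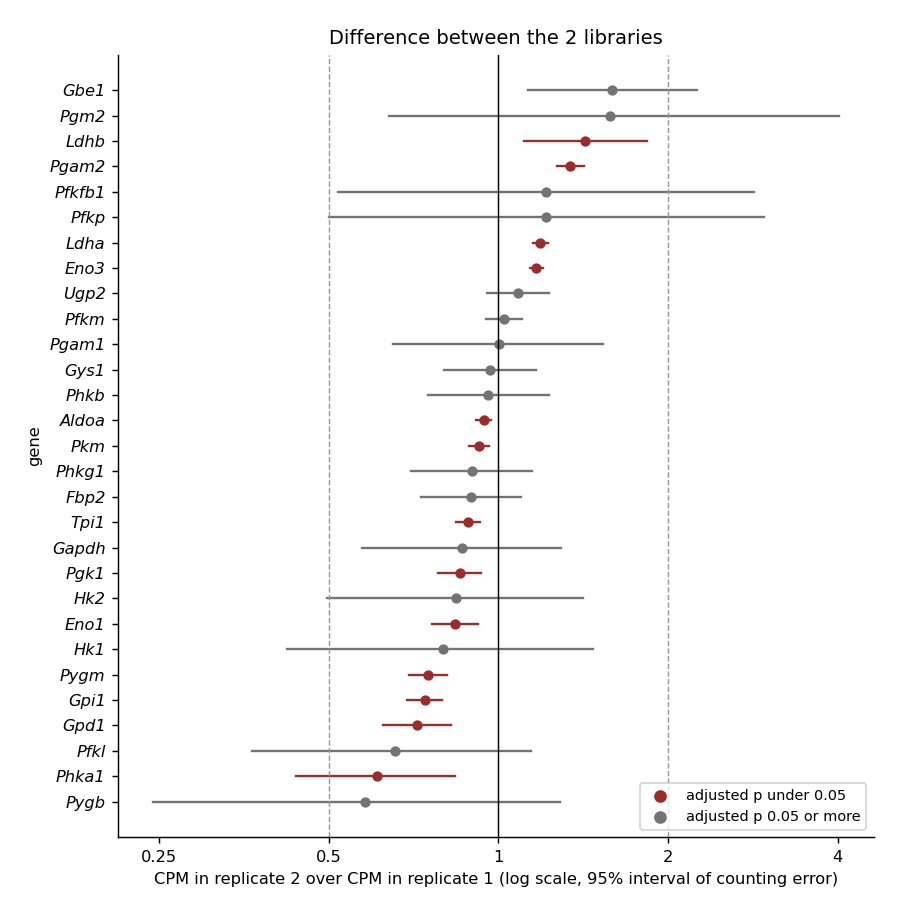
CPM in replicate 2 over CPM in replicate 1 on a log axis for the 29 enzymes tested, with exact 95% intervals of counting error; dark red marks an adjusted p under 0.05, and dashed lines mark 2-fold. All 29 points lie between the dashed lines, and the 13 marked ones run from 0.608 for Phka1 to 1.43 for Ldhb.

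Transcript choice was tested in the same way by Fisher's exact test, with a call at an adjusted p under 0.05 and 10 points. Of 70901 models over all genes 0.148% were called, and of 1000 models in 24 of the enzymes 0 were, with 33 at an unadjusted p under 0.05 against 2.24% of all. Without the limit on size 4 models passed, against 0.31% of all models. They were Aldoa-201 and the unannotated main model in Aldoa, and Eno3-206 and an incomplete model in Eno3. Of 3868 first exons 0.336% were called and of 26 in 20 enzymes 0 were, with 5 at an unadjusted p under 0.05, against 4.21% of all, and 3 passing without the limit on size, against 0.569% of all. Of 1712 variable internal exons 0.175% were called and of 6 in 4 enzymes 0 were, with 0 at an unadjusted p under 0.05 against 5.32% of all. Without the limit on size 0 of the 6 passed, against 0.467% of all. A model, first exon or internal exon that was not called is not shown to be equal in the 2 libraries. The enzymes had few variable exons: 6 of 299 measured internal exons (2.01%) were held by 5% to 95% of reads, beside 4.55% of 37618 over all genes.

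Annotated transcripts took 75.9% and 78.7% of the enzymes' reads, incomplete models 6.79% and 6.88%, new combinations of annotated splice sites 15.7% and 12.9%, models with a new splice site 1.41% and 1.41%, and the genomic class 0.166% and 0.145%. Over the other annotated genes the shares were 72.0% and 76.3%, 8.92% and 7.67%, 12.2% and 5.67%, 4.98% and 8.47%, and 1.99% and 1.92%. New splice sites and genomic reads thus took a smaller share of the enzymes' reads in each library. The pooled shares rest on the genes with the most reads. As a mean over genes, annotated transcripts took 69.9% and models with a new splice site 7.43%.

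The other genes of the pathway gave context from a list of 44, of which 36 had reads and 20 were tested. Called were 0 of 20, with 9 at an unadjusted p under 0.05 (exact conditional binomial test) beside 20.3% of all genes, and 7 passed the adjusted test with no fold limit beside 9.11% of all, 4 higher in replicate 2 and 3 higher in replicate 1, with a median log2 difference of -0.09. Pgm1, Slc16a3, Stbd1, Gaa and Mpc1 were among the 8 of highest level. Slc16a3, the lactate exporter MCT4, stood at 608 CPM and 574 CPM. Stbd1, which tethers glycogen to membranes, had 277 CPM and 185 CPM and was higher in replicate 1 (exact conditional binomial test, adjusted p = 0.000461). Gaa, the lysosomal glucosidase, had 213 CPM and 193 CPM. Mpc1, a subunit of the mitochondrial pyruvate carrier, had 159 CPM and 245 CPM and was higher in replicate 2 (exact conditional binomial test, adjusted p = 0.000382).

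Promoter letters were compared over RefSeq windows from 250 bases before to 50 after each start, on both strands, with 46 windows of 30 of the 31 genes. The E-box CANNTG was in 76.1% of the enzymes' windows and 72.3% of all 32851 windows. The GC box GGGCGG was in 52.2% and 35.7%, and ACGTG, the core of the hypoxia response element, in 41.3% and 19.6%. ACGTG overlaps the E-box in the letters CACGTG. The TATA letters TATAAA were in 2.17% and 13.6%, with Pfkfb1 as the only gene. The MEF2 motif was in 4.35% and 3.19%, in Pgam2 and Pfkfb1. These matches are descriptions of the letters and not of binding.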

How the data were processed

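The authors deposited counts, the raw number of long reads on each transcript model of a library, without normalization. Per the file headers and descriptions, the genome is mm10, the annotation GENCODE M21 and the models carry TALON classes; the aligner is not stated in these sources, nor are tool versions. The 2 labels cite different versions of the pipeline document, which cannot be told apart from the animals. Exons came from the deposited annotation of each library.

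The genes and lists were chosen with earlier results of these data known, and the motifs and the search for gene copies were chosen after the data were seen. Reads were summed per gene, model, first-exon donor and internal exon. Unannotated models were matched by intron chain. First exons were tested without incomplete and genomic models. Gene reads were compared by an exact conditional binomial test (two-sided), shares by a two-sided Fisher's exact test, both with the Benjamini-Hochberg adjustment over all features and tested on simulated data. In the simulated data most of the changed shares and most of the 2-fold gene changes were not called. Gene tests needed 20 reads over both libraries and share tests 20 in each. All 31 genes were named, and models, first exons and other pathway genes by set limits of 10%, 10% and the 8 highest; some items this takes are not reported here. Alternatives were scalings, read minima, transcript classes and limits on size. Software was Python 3.11.15, scipy 1.17.1, pandas 2.3.3, edgeR 4.0.16 and DESeq2 1.42.0.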

Additional observations from a re-analysis of the deposited data

Results flagged for a closer look

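Incomplete models of Pfkm are a signal outside the first-exon test, which left that class out. Those beginning in a single exon, the one from chr15:98112034 on, held 753 of 1634 and 697 of 1384 spliced Pfkm reads, or 46.1% and 50.4%, with a mean of 48.2%. The first base of the most read of these models lies 26 nt upstream of a RefSeq start. Reads were counted by donor, so their own first bases are not given. The series has no control samples to set this against.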

How the results depend on the processing

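Leaving aside the omission of a replicate, which with 2 libraries cannot move a mean past their SD, 38 values stayed on the same side of the threshold or within the spread between libraries and 21 moved. Without a limit on size, 13 enzyme genes, 4 models and 3 first exons passed in place of 0. With annotated transcripts only, the summed level fell to 34106 CPM. Mean shares became 41.3% for Hk2, 94.0% for Pfkm, 99.9% for Aldoa, 98.6% for Eno3 and 98.2% for Pygm. They were 97.7% for Phka1, 71.3% for Pfkfb1, 88.2% for Gpd1 and 100% for Gapdh against Gapdhs. Hk2-201 then had 21 and 7 reads beside 25 and 11 for Hk1-202, and Pfkfb1-201 had 10 and 7. No interval was computed at these low counts, so a change of leading gene is not shown. Without the genomic class, Hk2 held 52.1% and Gapdh 100%. As means over genes, class shares were 69.9% annotated, 10.3% incomplete, 11.4% new combinations, 7.43% new splice sites and 1.00% genomic. Counting near copies, added after the data were seen, gave 48494 CPM for the sum and 4439 CPM for Gapdh. The cause of these shifts was not tested beyond what each choice leaves out. Leaving out either replicate gave the other library's value: 43569 to 44641 CPM for the sum, 55.7% to 58.7% for Hk2 and 17.3% to 29.5% for Pfkfb1, with no test left. No paired analysis was possible because there is 1 group. Depth limits Aldoc, Pfkfb3, Pfkp, Pgm2 and Pfkfb1, with 13 reads or fewer in each library.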

Other observations

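Antisense models at the enzyme genes held few reads. Phka1 had 9 and 0, Pygm 8 and 0, Pfkm 5 and 5, Phkb 5 and 4, Phkg1 4 and 2 and Pkm 3 and 3, and the other genes had 2 or fewer in each library.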
